A study of Caenorhabditis elegans with 4 samples.

Results

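The laminin, nidogen, collagen IV and associated basement membrane genes of Caenorhabditis elegans were followed in RNA of wild-type worms at L3, the third larval stage. The genes were the laminin genes epi-1, lam-3, lam-1 and lam-2, the nidogen gene nid-1, the collagen IV genes emb-9 and let-2, the collagen XVIII gene cle-1, the SPARC gene ost-1 and the papilin gene mig-6. A probe was taken where its annotated gene symbol was one of these names and it had a value on 3 or more arrays. All 10 genes had 1 such probe each, with a value on all 4 arrays, among 14921 named genes measured (19928 genes and unnamed probes in all). Each of 4 numbered L3 preparations was hybridised on its own 2-colour array against RNA of a wild-type mixed reference. The labels do not say what was mixed in the reference, how old its worms were or which strain was used. Nothing in the labels says that the 4 preparations were separate cultures, so the limma p-values reflect the spread among preparations and no more, and that spread may be technical.

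Basement membranes are thin sheets of extracellular matrix that lie under epithelia and around muscle, gonad and pharynx. Laminin trimers of an alpha, a beta and a gamma chain assemble on cell surfaces, collagen IV trimers form a covalently linked network that gives the sheet its strength, and nidogen binds both. In the worm, body wall muscle makes much of the collagen IV. During L3 the gonad arms elongate along the body wall, and the anchor cell of the gonad breaches the basement membrane over the vulval cells.

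Values are log2 ratios, likely L3 over reference, after centring each array on its median, so a value of 1 is a 2-fold higher level in L3. The direction is called likely because the dyes are not labelled. The reference was in the first channel of every array, so a dye bias of a probe cannot be told apart from a difference between the RNAs. The arrays correlated with each other across probes (Pearson r from 0.620 to 0.723; probes are not independent replicates). The spread of array 2 was the widest, with a median absolute deviation of 0.58 against 0.28 to 0.39 on the others. Of 15 germ line and oocyte markers 13 were lower in L3 (list median -2.64), where 10.8% of all genes and probes were lower. Oocytes form after L3, and the eggshell gene perm-2 lay at -4.83 ± 0.20 (SD, n = 4). The list also holds wider germ line genes, such as gld-1 (-2.31), htp-3 (-0.82), him-3 (-0.77), glp-1 (-0.55), pgl-1 (-0.15) and glh-1 (0.56). The last 2 did not pass, and glh-1 lay above 0 on 4 of 4 arrays. In RNA of whole worms, fewer cells of a type and less RNA per cell cannot be told apart.

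Transcripts of epi-1, nid-1, emb-9 and mig-6 were higher in L3 than in the reference, and the other 6 genes did not pass the threshold. Thus 4 of 10 were higher and 0 lower, where 8.32% of all genes and probes were higher and 10.8% lower (limma, Benjamini-Hochberg adjusted p under 0.05 over all 19928). A total of 5 of the 10 had an unadjusted p under 0.05, as did 35.1% of all genes and probes. All 10 means lay above 0, and the median of the 10 means was 0.69, beside 0.02 over all genes and probes. The log2 ratio was above 0 on 4 of 4 arrays for the same 4 genes, as it was for 22.5% of genes and probes with 4 values. Members are not replicates of a condition, and the members were chosen with earlier results of these data known.

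**Figure D1:**
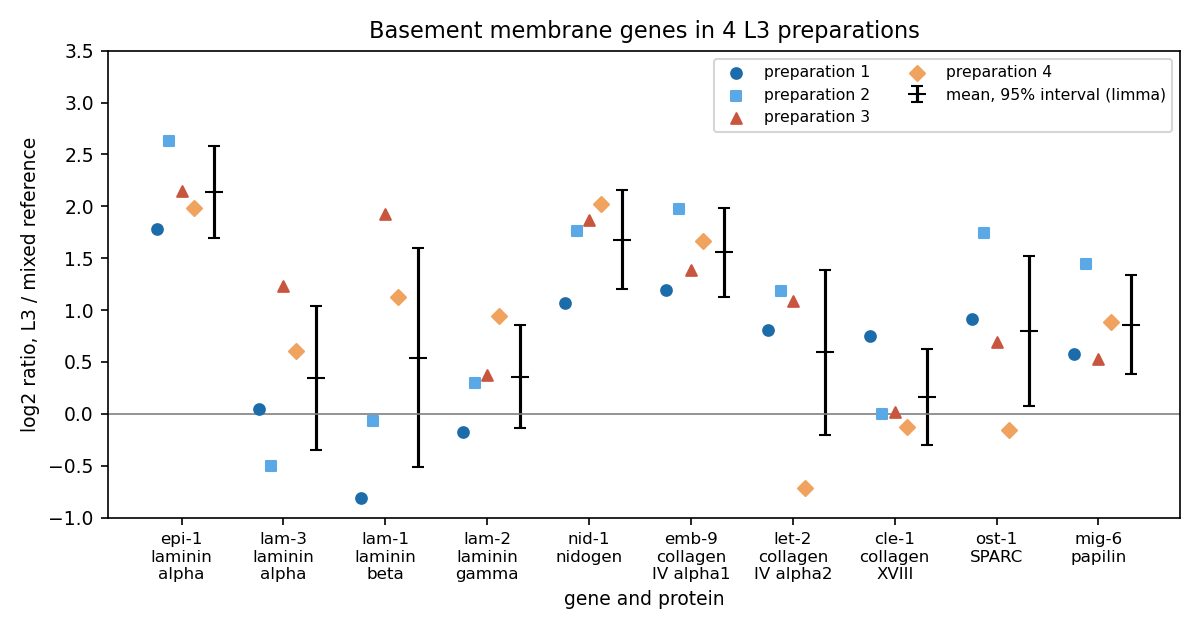
Log2 ratio of each basement membrane gene (y axis, L3 over mixed reference, median-centred) in each of the 4 L3 preparations (points, 1 array each), with the mean and the 95% interval from limma (bars). The points of epi-1, nid-1, emb-9 and mig-6 all lie above 0, while those of lam-1 run from -0.82 to 1.92.

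Of the 4 laminin genes, epi-1 was higher in L3 and the other 3 did not pass the threshold. epi-1, which encodes the laminin alpha chain used widely in body wall muscle, gonad and epidermis, had the highest ratio of the 10 genes. Its log2 ratios were 1.78, 2.63, 2.15 and 1.98 in preparations 1 to 4. All 4 were high and lay within 0.85 of each other. The mean was 2.14 ± 0.36 (SD, n = 4), a 4.39-fold higher level in L3 (95% interval 3.23 to 5.98; limma adjusted p = 0.00139), and 99.2% of all genes and probes had a lower mean.

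lam-3, the gene of the other laminin alpha chain, which is prominent in the pharynx, gave 0.04, -0.50, 1.23 and 0.60. Preparations 1 and 2 were near or below 0 and preparations 3 and 4 above it. The mean of 0.34 ± 0.74 (n = 4; 95% interval on the log2 scale from -0.35 to 1.04) did not pass the threshold (limma adjusted p = 0.429). It was 0.05 without preparation 3 and 0.62 without 2.

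lam-1 encodes the beta chain, which both kinds of laminin trimer share. Its ratios were -0.82, -0.07, 1.92 and 1.13, the widest range of the 10 genes, and 96.4% of all genes and probes had a smaller SD. The sign was negative in preparations 1 and 2 and positive in 3 and 4. The mean of 0.54 ± 1.22 (n = 4) had a 95% interval from -0.51 to 1.60 (limma adjusted p = 0.411), whose upper bound is a 3.02-fold increase. It was 0.08 without preparation 3, 0.35 without 4 and 0.99 without 1.

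The gamma chain gene lam-2, whose product is likewise shared by all laminin trimers, had ratios of -0.18, 0.29, 0.38 and 0.94. Only preparation 1 was below 0. The mean of 0.36 ± 0.46 (n = 4; 95% interval from -0.14 to 0.86) did not pass (limma adjusted p = 0.263), and its upper bound is a 1.81-fold increase. Without preparation 4 it was 0.16, and without preparation 1 it was 0.54.

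Of the laminin chains, epi-1 thus had the higher ratio in each preparation. On the log2 scale it exceeded lam-3 by 1.74, 3.14, 0.92 and 1.38, and lam-2 by 1.96, 2.34, 1.77 and 1.04. It exceeded lam-1 by 2.60, 2.70, 0.22 and 0.86. These are differences between ratios to the reference, not between the levels of the chains, since a probe's brightness is not comparable with another's. For each of these 3 pairs the exact two-sided sign-flip test over the 4 arrays gave p = 0.125, the smallest p that 4 arrays allow, and 0.196 adjusted over the 11 pairs compared, so no pair could pass. lam-1 and lam-2 differed by 0.18 ± 0.97 (n = 4), with 2 of 4 arrays on each side of 0 (exact p = 0.875, adjusted 0.875); this mean turned to -0.27 without preparation 3.

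nid-1 encodes nidogen, which links the laminin and collagen IV networks and in the worm is concentrated along nerves and beside muscle. Its ratios were 1.06, 1.76, 1.87 and 2.03. Preparation 1 was the lowest and the other 3 lay close together. The mean of 1.68 ± 0.43 (n = 4) is a 3.20-fold higher level in L3 (95% interval 2.30 to 4.47; limma adjusted p = 0.00345).

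The collagen IV genes differed in how even their ratios were. emb-9, the gene of the alpha1 chain, lay at 1.20, 1.98, 1.39 and 1.67, above 1 in every preparation. The mean of 1.56 ± 0.34 (n = 4) is a 2.94-fold higher level in L3 (95% interval 2.18 to 3.97; limma adjusted p = 0.00316), and 97.7% of all genes and probes had a lower mean.

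let-2, the gene of the alpha2 chain, which joins alpha1 chains in the trimer, gave 0.80, 1.18 and 1.09 in preparations 1 to 3 and -0.71 in preparation 4. A single preparation thus stood on the other side of 0. Over all 4 the mean was 0.59 ± 0.88 (95% interval from -0.20 to 1.39; limma adjusted p = 0.249). Without preparation 4 it was 1.03 and passed the threshold (limma adjusted p = 0.0285). On array 4 no other value of the 10 genes was lower, while emb-9 on the same array lay at 1.67. RefSeq lists 2 transcripts each of let-2 and emb-9, and the labels do not say which of them a probe reads.

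Between the chains, emb-9 exceeded let-2 by 0.39, 0.79, 0.30 and 2.38. The mean difference was 0.96 ± 0.97 (n = 4; exact sign-flip p = 0.125, the smallest possible, adjusted 0.196), and 1 of the 4 values, that of preparation 4, made up most of it. nid-1 and emb-9 were the pair of members whose ratios lay closest over the 4 arrays, with a root mean square difference of 0.33. Their mean difference of 0.12 ± 0.35 was smaller than its SD (exact p = 0.500, adjusted 0.550).

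cle-1, the gene of collagen XVIII, a collagen with an endostatin domain that acts in cell and axon migration, lay near 0. Its ratios were 0.75, 0.00, 0.01 and -0.13, high in preparation 1 and between -0.13 and 0.01 in the others. The mean was 0.16 ± 0.40 (n = 4; 95% interval from -0.30 to 0.62; limma adjusted p = 0.589), which bounds an increase at 1.54-fold, and without preparation 1 it was -0.04. emb-9 exceeded cle-1 by 0.45, 1.97, 1.37 and 1.80 (exact sign-flip p = 0.125, adjusted 0.196). RefSeq lists 4 transcripts of cle-1, so the single probe may not stand for each. That limit also holds for epi-1 (6 transcripts), nid-1 and mig-6 (3 each) and emb-9, let-2, lam-1 and ost-1 (2 each).

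ost-1 encodes SPARC, a collagen-binding glycoprotein of basement membranes. Its ratios were 0.91, 1.75, 0.69 and -0.16, with preparation 4 alone below 0. The mean of 0.80 ± 0.78 (n = 4; 95% interval from 0.07 to 1.52) had an unadjusted limma p of 0.0353 and did not pass after adjustment (0.114). It was 0.48 without preparation 2 and 1.12 without 4. ost-1 and let-2 were both lowest in preparation 4 and highest in preparation 2. Their difference, let-2 minus ost-1, was -0.20 ± 0.46, with 1 of 4 arrays above 0 (exact p = 0.375, adjusted 0.458).

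mig-6 encodes papilin, a matrix protein required for migration of the distal tip cells that lead the gonad arms. Its ratios of 0.58, 1.45, 0.53 and 0.88 were all above 0. The mean of 0.86 ± 0.42 (n = 4) is a 1.81-fold higher level in L3 (95% interval 1.30 to 2.52; limma adjusted p = 0.0294). With any 1 preparation left out the mean stayed between 0.66 and 0.97, and the adjusted p rose to values from 0.0567 to 0.0871. mig-6 lay below emb-9 on every array, by a difference of -0.62, -0.53, -0.86 and -0.78 (mean -0.70 ± 0.15; exact p = 0.125, adjusted 0.196), the most even difference of the 11 pairs.

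**Figure D2:**
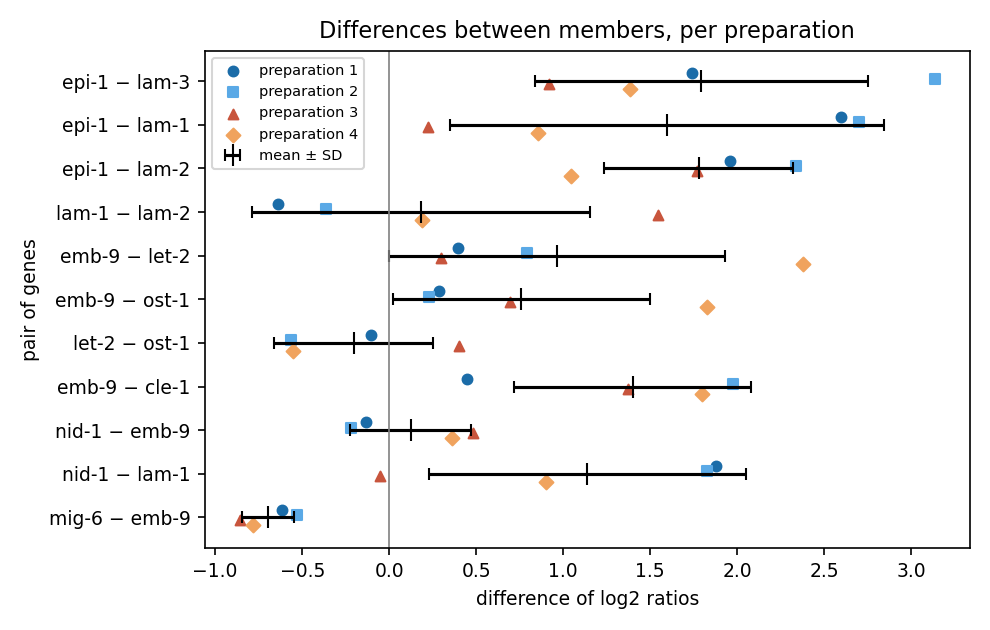
Difference of log2 ratios (x axis) between 2 basement membrane genes for 11 pairs (y axis), in each preparation (points) with the mean and SD (bars, n = 4). The differences of epi-1 from the other laminin genes lie above 0 on every array, and preparation 4 stands apart in emb-9 minus let-2 at 2.38.

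By mean ratio the order was epi-1, nid-1, emb-9, mig-6, ost-1, let-2, lam-1, lam-2, lam-3 and cle-1. Of the 9 steps between neighbours, those from epi-1 to nid-1 (0.46 ± 0.42, above 0 on 3 of 4 arrays) and from emb-9 to mig-6 (0.70 ± 0.15, on 4 of 4) were larger than the SD of the difference. The remaining 7 were smaller than their SD. The order of nid-1 and emb-9, and of neighbours from mig-6 down to cle-1, is thus not resolved by 4 arrays. The step from epi-1 to nid-1 was not tested.

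The array titles put preparations 1 and 2 in 1 month and preparations 3 and 4 in another, so values are also given by month. In lam-1, lam-3, lam-2 and nid-1 both preparations 3 and 4 lay above both 1 and 2, and in ost-1 both lay below. That makes 5 of 10 genes whose months did not overlap, where 37.6% of genes and probes with 4 values did not overlap either, and 18.2% had both 3 and 4 above. The share of members whose months did not overlap is near the 37.6% and is no result about them. The share with both 3 and 4 above (lam-1, lam-3, lam-2 and nid-1 of 10) is larger than the 18.2%. With 10 genes it is no result about them either, and it was not tested. lam-1 averaged -0.44 in preparations 1 and 2 and 1.52 in 3 and 4, and lam-3 averaged -0.23 and 0.92. Within preparations 3 and 4, lam-1 passed the threshold (limma adjusted p = 0.0317, 2 arrays). lam-2 averaged 0.06 and 0.66, and nid-1 1.41 and 1.95, the latter with limma adjusted p = 0.0550 within preparations 1 and 2 alone. The opposite order held in ost-1 (1.33 and 0.27) and in let-2 (0.99 and 0.19), where the values overlapped.

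The means of epi-1 (2.21 and 2.06) and emb-9 (1.59 and 1.53) were alike in both months, and each passed within either (limma adjusted p from 0.00888 to 0.0459). A fit within a month had 2 arrays, so its p-values rest in large part on the spread that limma shares between genes. mig-6 averaged 1.01 and 0.71 and passed in neither month (limma adjusted p = 0.121 and 0.128). Each title holds a date and a code, whose letters are the same for arrays 1 and 2 and differ for arrays 3 and 4. What the code means and what was shared within a month are not stated, and the part of the month in these differences was not tested.

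**Figure D3:**
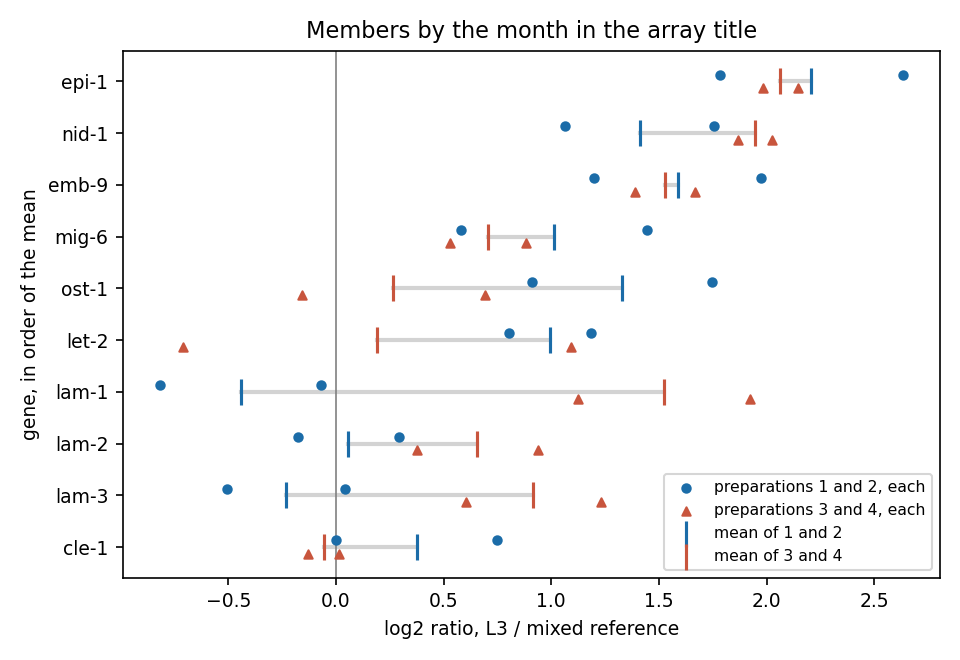
Log2 ratio (x axis) of each basement membrane gene (y axis, in order of the mean), for preparations 1 and 2 (circles) and 3 and 4 (triangles), which differ in the month of the array title; vertical ticks are the means of each pair. The ticks nearly coincide in epi-1 and emb-9 and lie farthest apart in lam-1, at -0.44 and 1.52.

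Array 2, the array of widest spread, gave the highest value of the 4 in epi-1, emb-9, let-2, ost-1 and mig-6. The share of all genes and probes highest on array 2 is not given here, so this is no result about the members. With all arrays scaled to a common spread, epi-1 lay at 2.22, emb-9 at 1.64 and mig-6 at 0.87, and their calls remained. let-2 fell from 0.59 to 0.45 and ost-1 from 0.80 to 0.67, and neither passed.

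Further matrix genes were examined in lists by role, chosen with earlier results of these data known. Of 10 further components of basement membrane or matrix, 4 were higher and 0 lower, with a list median of 0.43. That is 40% higher, where 8.32% of all genes and probes were higher and 10.8% lower. unc-52, which encodes perlecan, the heparan sulphate proteoglycan that anchors body wall muscle, lay at 1.61, 2.90, 1.55 and 1.69 (mean 1.94 ± 0.65; limma adjusted p = 0.00510). The hemicentin gene him-4 lay at 1.45 ± 0.49 (limma adjusted p = 0.00728). spon-1, which encodes F-spondin, lay at 0.81 ± 0.19, and pxn-2, for a peroxidasin of the family that crosslinks collagen IV, at 0.75 ± 0.21 (n = 4 each). The agrin gene agr-1, named after its values were seen, lay at -0.70 ± 0.40 (limma adjusted p = 0.0512). Without preparation 1 this list held 2 higher genes, and without any other 1 it held 3. Calls fell over all genes and probes too, from 1659 higher to between 792 and 1093 with 1 preparation left out.

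Among 14 receptors and cell-surface proteins that bind basement membrane or netrin, 4 were higher and 0 lower (median 0.45). The higher share was 28.6%, against 8.32% of all genes and probes. The integrin alpha genes pat-2 and ina-1, whose products bind matrix proteins together with the beta chain of pat-3, lay at 1.17 ± 0.54 and 0.74 ± 0.33. Their partner pat-3 did not pass, at 0.44 ± 0.33 (limma adjusted p = 0.135). The glypican genes gpn-1 and lon-2 lay at 1.05 ± 0.28 and 0.74 ± 0.38. The count was 2 without preparation 1 or 2 and 1 without 3 or 4.

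Of 10 measured genes of collagen modification, folding and secretion, 7 were higher and 0 lower (median 0.81). That share of 70% stood above the 8.32% of all genes and probes. Other lists stood above it too, among them other matrix genes (40%), receptors (28.6%) and markers of body wall muscle (72.7%), intestine (66.7%) and epidermis (33.3%). pdi-2 (1.60 ± 0.34) and dpy-18 (1.28 ± 0.42) encode subunits of prolyl 4-hydroxylase, which modifies collagen chains before they fold. The genes tfg-1 (1.53 ± 0.23) and sec-24.1 (1.10 ± 0.41) act in export from the endoplasmic reticulum. This list serves cuticle collagens and other secreted proteins too. It held 4, 5, 3 and 4 higher genes without preparations 1 to 4 in turn.

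The proteases and inhibitors that remodel matrix gave 2 higher and 1 lower of 13 measured (median 0.52). The higher share of 15.4% stood beside 8.32% of all genes and probes higher and 10.8% lower. With 13 genes these counts are near those shares and are no result about the list. mig-17, for an ADAMTS protease that guides gonad arm shape, lay at 1.32 ± 0.24 (limma adjusted p = 0.00356), and the ADAMTS gene adt-1 at 1.12 ± 0.66. timp-1, a gene for a metalloprotease inhibitor of the TIMP family, was the lower one, at -0.88 ± 0.38 (limma adjusted p = 0.0240). The higher count was 1 without preparation 1, 2 or 4, and the lower count was 0 without 1, 3 or 4. Scaling the arrays to 1 spread gave 3 higher genes and quantile normalization 4.

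None of 8 measured genes for anchor cell invasion passed in limma, and 1 had an unadjusted p under 0.05, against 35.1% of all genes and probes (median -0.14). The list holds fos-1, a transcription factor gene required for the breach, at 0.45 ± 0.19, and the transcription factor gene egl-43 at -0.42 ± 0.32. cdh-3, for a cadherin of the Fat type, lay at 0.49 ± 0.68, and the Rac-like GTPase gene mig-2 at -0.89 ± 1.63, with -3.32 in preparation 2 alone. These genes act in a single cell of the worm as well as in other tissues, and RNA of whole worms does not separate them.

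**Figure D4:**
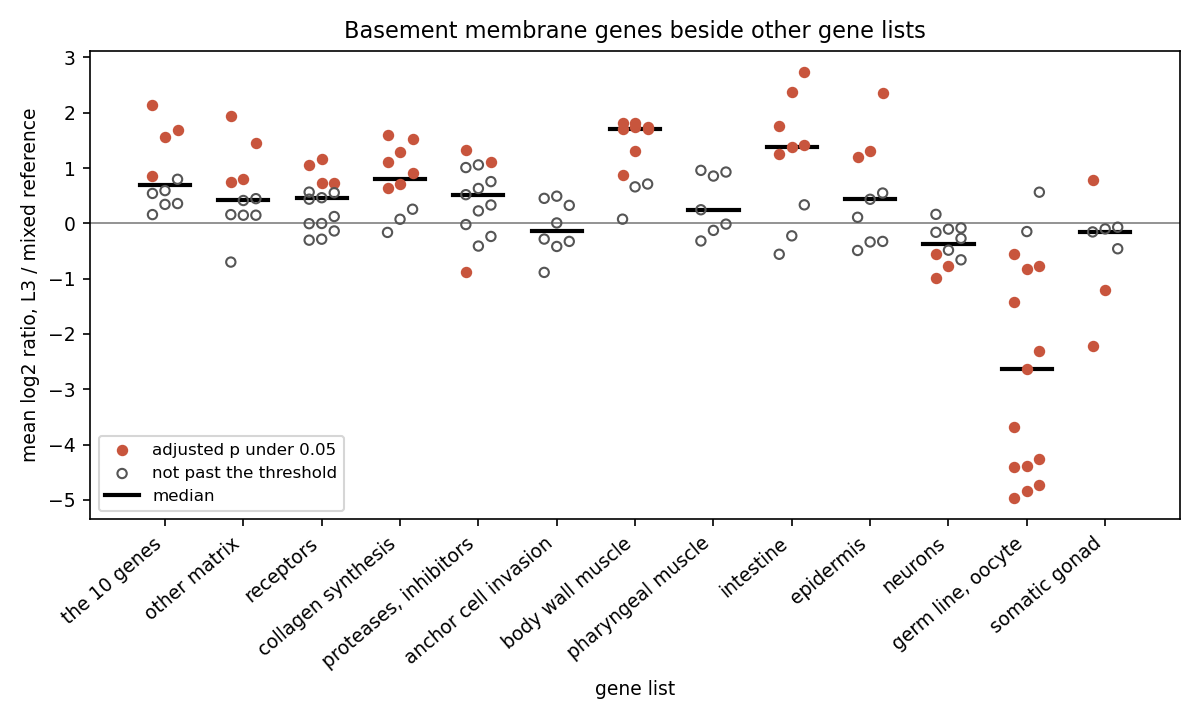
Mean log2 ratio (y axis, n = 3 or 4 arrays) of the 10 basement membrane genes and of the genes of 12 lists by role or tissue (x axis); filled points passed the limma threshold, open points did not, and bars are medians. The basement membrane genes have a median of 0.69, body wall muscle markers of 1.71 and germ line and oocyte markers of -2.64.

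Markers of several tissues were set beside the basement membrane genes, where 8.32% of all genes and probes were higher and 10.8% lower. Of 11 body wall muscle markers 8 were higher and 0 lower, with a median of 1.71 (preparation medians from 1.34 to 1.82). tnt-2, a troponin T gene, lay at 1.82 ± 0.31 and the myosin gene myo-3 at 1.81 ± 0.48. Of 9 intestine markers 6 were higher and 0 lower (median 1.39), and of 9 epidermis markers 3 were higher and 0 lower (median 0.44; 1 higher without preparation 1). The 3 higher epidermis markers, dpy-7 (1.30), rol-6 (1.21) and dpy-13 (2.35), encode cuticle collagens. Of the rest, none of which passed, elt-1 (-0.49), elt-3 (-0.34) and lin-26 (-0.33) lay below 0. The others, vab-10 (0.55), che-14 (0.44) and nhr-25 (0.11), lay above it. Neuron markers gave 0 higher and 3 lower of 10 (median -0.38; 0 lower without preparation 1 or 3 and 2 without preparation 2). Among 7 somatic gonad markers 1 was higher and 2 lower (median -0.16). The lower ones were inx-8 (-2.22 ± 0.28) and inx-9 (-1.21 ± 0.22), and the lower count stayed at 2 without any 1 preparation. The higher one, fln-1 (0.78 ± 0.30), was lost without any 1 preparation.

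No pharyngeal muscle marker passed among 7 in limma (3 with an unadjusted p under 0.05, against 35.1% of all genes and probes; median 0.25), but 3 were higher with scaled or quantile normalized arrays. The part of tissue proportions in the ratios of the basement membrane genes was not tested.

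Genes with the most similar ratios were sought by the root mean square difference over the 4 arrays among 14538 other named genes measured on all of them. Around the mean profile of emb-9 and let-2 (1.00, 1.58, 1.24 and 0.48) the nearest were gtnt-1 and F53C11.1, both at a difference of 0.07, then F13B12.2 and K02E10.7 at 0.14, and cpr-9, a cysteine protease gene, at 0.16. Around the mean profile of epi-1, lam-1 and lam-2 (0.26, 0.95, 1.48 and 1.35) they were B0495.7 (0.14), the fatty acid synthase gene fasn-1 (0.15), gei-13 (0.19), the patched-related gene ptr-15 (0.20) and mua-3 (0.20), whose product attaches the epidermis to the cuticle. The profiles average members that differ from each other, and with 4 arrays many genes can lie near a profile. mua-3 has 2 probes, with mean ratios of 0.06 and 1.83, and the average of both is compared here.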

How the data were processed

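The authors deposited a log2 ratio of both channels for each probe of 4 arrays, with array medians near 0. The file holds 21632 probes. The labels give no background correction, normalization, spot filter or signal over background, so the number of arrays limits the precision. Raising 2 to each value gave multiples of 0.001 (within 0.02 of a step) for at least 99.96% of values per array.

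From these, each array was centred on its median. Probes with 1 symbol (16450; 247 had several and 4935 none) were averaged per gene after updating symbols by Entrez number to RefSeq WBcel235 (16360 matched), and genes with values on at least 3 of 4 arrays were tested against 0 with limma 3.58.1 under R 4.3.3 (an intercept fitted by lmFit, then eBayes; two-sided; Benjamini-Hochberg; threshold 0.05). The fit was also run on simulated data with independent normal noise and no differences of month, dye or array spread. That run cannot speak to those features of the arrays. Differences between members used an exact sign-flip test in Python 3.11.15. Fits without a preparation kept the same genes, each with at least 2 values.

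The members, lists and tests were chosen with earlier results of these data known. The text names all members. Per list, up to 4 genes past the threshold with the largest absolute means were chosen to be named. Where fewer than 2 passed, the largest absolute means were chosen. In the 5 lists by role all chosen genes are named. In the 7 lists by tissue only some of them are, and no fixed rule picked those. pat-3, agr-1, glp-1, gld-1, him-3, htp-3, pgl-1, glh-1, elt-1, elt-3, lin-26, vab-10, che-14 and nhr-25 were named after their values were seen. For each mean profile the 5 nearest genes are named. Genes not measured on 3 arrays are not analysed here. Alternatives were the values as deposited, scaled or quantile normalized arrays, 2 or 4 arrays as the minimum, single probes, the month as a block or alone, and each preparation left out.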

Additional observations from a re-analysis of the deposited data

Results flagged for a closer look

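A single preparation stood far from the other 3 in 6 of 63 genes checked, with a gap to the nearest value that passed Dixon's 95% critical value for 4 samples; chance gives this in about 1 of 20 groups. Among the basement membrane genes this held for cle-1, at 0.75 in preparation 1. Among the others the perlecan gene unc-52 was highest in preparation 2 (2.90), as were the anchor cell gene fos-1 (0.74) and the intestinal proton pump gene vha-6 (2.42). mig-2 was lowest there, at -3.32, and the synaptotagmin gene snt-1 was highest in preparation 4, at -0.52. let-2 in preparation 4 had a gap of 0.80 of its range, under that limit.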

How the results depend on the processing

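The calls of epi-1 and emb-9 remained under all 13 alternatives (1.97 to 2.25 and 1.42 to 1.68). That of nid-1 was lost in preparations 1 and 2 alone (1.41). Each member has 1 probe with 4 values. Single probes, 2 or 4 arrays as the minimum and the month block therefore could not change its mean. mig-6 lost its call within either month (1.01 in preparations 1 and 2, 0.71 in 3 and 4) and without any 1 preparation (0.66 to 0.97). In preparations 1 and 2 alone lam-3 (-0.23) and lam-1 (-0.44) turned negative, and in 3 and 4 lam-1 passed (1.52) and cle-1 turned negative (-0.057), as it did without preparation 1 (-0.038 to 0.25 over the preparations left out). let-2 passed without preparation 4 (0.40 to 1.03). With 1 preparation left out, lam-1 ran from 0.08 to 0.99, lam-3 from 0.05 to 0.62, lam-2 from 0.16 to 0.54 and ost-1 from 0.48 to 1.12, none passing. Members higher numbered 2 in preparations 1 and 2 alone and 3 to 4 with 1 preparation left out; without preparation 4 these included let-2 in place of mig-6. In the 5 lists by role, 17 genes were higher, against 10 in preparations 3 and 4, 4 in preparations 1 and 2, and 9 to 11 with 1 preparation left out. Over all genes and probes 19.1% were called in either direction, against 8.56% in preparations 3 and 4 and 7.87% in 1 and 2. With 1 preparation left out that share was 9.49% to 13.7%, so calls fell across the whole data and not only in these lists. The 1 lower gene became 2 with values as deposited, scaled arrays, quantile normalization, a value on 4 arrays and the month as a block, 0 within either month and 0 to 1 with 1 preparation left out. The month block had a correlation of -0.117, which lowers standard errors. Of the differences, lam-1 minus lam-2 turned to -0.50 in preparations 1 and 2 (-0.27 to 0.46 with 1 left out) and nid-1 minus emb-9 to -0.18 there. The cause of these changes was not tested; calls were lost and gained in fits with fewer arrays. No paired analysis was possible because there is 1 group. The dyes, the reference and signal over background are unknown.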
